A study of Drosophila melanogaster with 2 samples.

Results

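The genes described here are 10 regulators of sex determination and X chromosome dosage compensation in Drosophila melanogaster, namely Sxl, tra, tra2, dsx, fru, msl-1, msl-2, msl-3, mle and mof. They were chosen by symbol, and each was read by its brightest probe set that names a single gene. All 10 are among the 10844 genes named on the array. Of these 10844 genes, 7639 had a signal at or above a floor of 97.3 on at least 1 array and are called measured, and 6 of the 10 regulators are among them. The floor is the 40th percentile of the signals of gene probe sets over both arrays.

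The study sought genes regulated by the transcription factor TDF, now called Apontic (gene symbol apt), with 1 array of tdf mutant embryos and 1 array of yw embryos. The tdf embryos were homozygous for a tdf mutation and were sorted by means of a CyO balancer chromosome marked with GFP, which homozygotes lack. The yw embryos came from a stock named for the markers yellow and white and served as the comparison. Eggs of both groups developed at 25 °C on apple juice plates to 16 h after laying, and biotin-labelled probes were made from total RNA of each. The sources used here do not give the tdf allele, the length of the egg collection, or the number and sex of the embryos in each extract. Each genotype has 1 array, so no value has a replicate, a standard error or a p-value. The yw stock is a separate stock, so its other genetic differences cannot be told apart from the tdf mutation. The genes msl-1, msl-2, mle and tra2 lie on the second chromosome, which is also the chromosome of apt and of the balancer.

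In Drosophila the dose of the X chromosome sets the splicing switch Sxl on in females and off in males. Sxl protein acts on RNA: it keeps its own splicing in the female mode, directs productive splicing of tra, and blocks translation of msl-2. Tra and Tra2 then direct the splicing of dsx and fru, which encode the sex-specific transcription factors of the body and of the nervous system. In males, where Sxl is off, Msl-2 assembles with Msl-1, Msl-3, Mle, Mof and the roX RNAs into the MSL complex, which acetylates histones along the X chromosome and raises its transcription. Several of these steps change the form or translation of an RNA and not its amount, and the sources used here do not say whether any probe set lies in a sex-specific exon.

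The mean signal was 500.1 on each array after 2% of the probe sets had been trimmed from either end, an equality that scaling of each array as a whole sets and that says nothing of how alike the RNAs were. The targeted gene apt had a signal of 1051 on the array labelled tdf, against 979 on the yw array, a log2 ratio of 0.10. This is not a lower apt signal in the mutant, and it does not check the label because the sources used here do not describe the lesion, so the array is called the array labelled tdf throughout. The 4 probe sets for yeast transcripts, which serve as controls without a fly target, ran from 71.2 to 223 on the array labelled tdf, against 5.37 to 64.2 on the yw array. On the array labelled tdf, 3 of the 4 were thus above the floor. Signals of up to 223 on that array, also those of partner genes and markers below, are no higher than the brightest of these controls. The 6 poly(A) controls above the floor on both arrays, which enter the sample with the unlabelled RNA, had a median log2 ratio of -0.91 (tdf over yw). The ratio of 3' to 5' signal ran from 17.3 to 56.6 on the array labelled tdf and from 14.9 to 45.5 on the yw array over 4 fly transcripts. Log2 ratios below are of the array labelled tdf over the yw array, after signals under the floor were raised to it.

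Sxl, the binary switch of the pathway, had the highest ratio of the 6 measured regulators. Its signal was 464 on the array labelled tdf, against 274 on the yw array, which is 1.69-fold higher and a log2 ratio of 0.76. Among the 500 measured genes of nearest mean signal, the log2 ratio ran from -0.95 at the 10th percentile to 0.63 at the 90th, so Sxl lay outside that range, on its upper side. Of the same 500 genes, 21.6% had a ratio at least as far from 0 in either direction. The other probe set of Sxl had signals of 79.9 on the array labelled tdf and 46.8 on the yw array, both under the floor, where values are given no order. In whole embryos a lower or higher signal does not separate the number of cells that express a gene from the amount of RNA in each.

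The splicing regulators downstream of Sxl had almost equal signals on the arrays. The gene tra, whose productive mRNA is made in females, had a signal of 144 on the array labelled tdf, against 129 on the yw array, a log2 ratio of 0.16. Its constitutive partner tra2 had 218 on the array labelled tdf, against 192 on the yw array, a log2 ratio of 0.18. Both ratios are small beside the within-gene spread of the arrays, an SD of 0.53 for the log2 ratios of probe sets that read the same gene (278 genes with several probe sets above the floor on both arrays). On the array labelled tdf, tra and tra2 were within the range of the yeast controls.

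The transcription factor genes at the end of the cascade were not measured. The gene dsx had a signal of 13.8 on the array labelled tdf and 12.1 on the yw array. The 4 probe sets of fru ran from 52.9 to 96.5 on the array labelled tdf and from 52.5 to 89.9 on the yw array. All of these are under the floor, so no ratio is given. A low array signal places a bound on detection and does not show that these genes were silent.

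**Figure D1:**
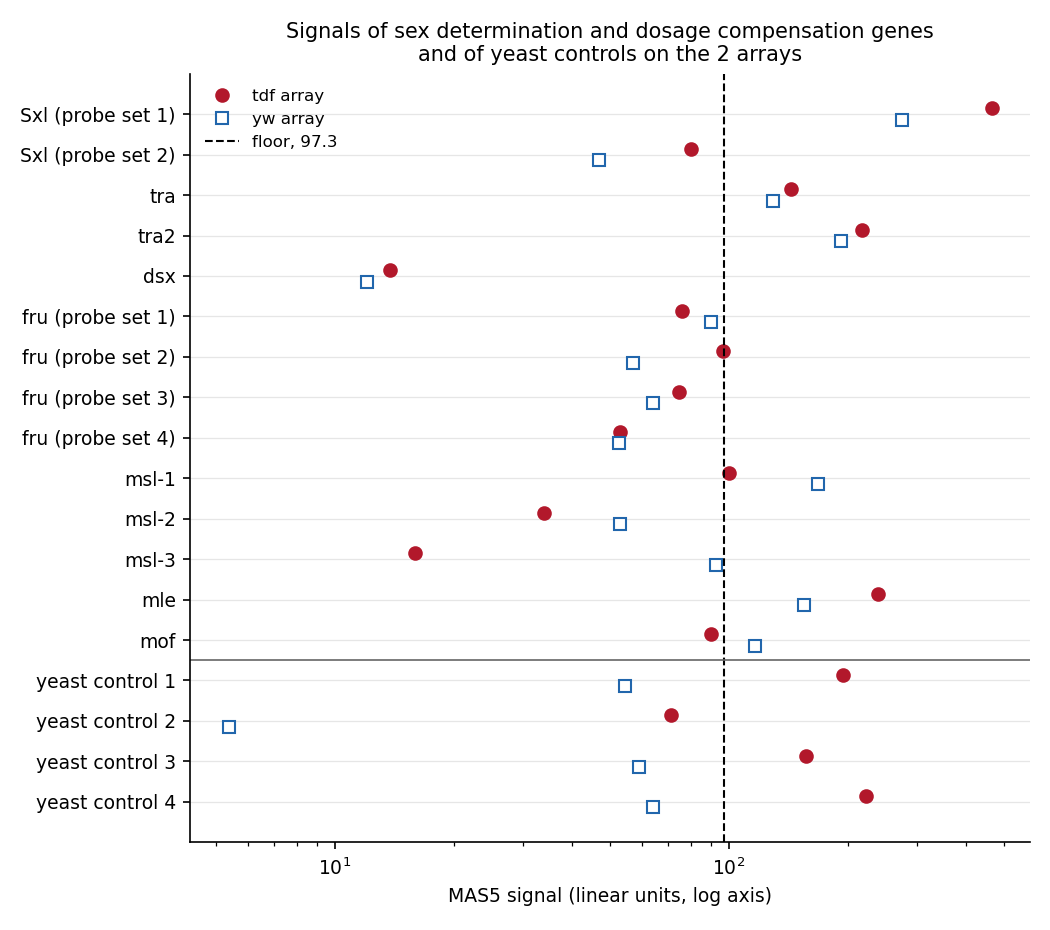
MAS5 signal (log axis) of the 14 probe sets of the 10 genes and of the 4 yeast controls, with filled circles for the array labelled tdf, open squares for the yw array and a dashed line at the floor of 97.3. Of the 14 probe sets, 5 are above the floor on both arrays and 8 are below it on both, and 3 of the 4 yeast controls are above it on the array labelled tdf only.

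The genes of the MSL complex went both ways. The scaffold gene msl-1, on which the other subunits assemble, had a signal of 100.04 on the array labelled tdf, against 168.5 on the yw array, which is 1.68-fold lower and a log2 ratio of -0.75. The helicase gene mle, whose product remodels the roX RNAs, had 239 on the array labelled tdf, against 155 on the yw array, which is 1.55-fold higher and a log2 ratio of 0.63. These genes lay on opposite sides of 0, and each was inside the 10th to 90th percentile range of the 500 genes nearest to it in signal. That range was -0.88 to 0.83 for msl-1 and -0.97 to 0.82 for mle. The signal of msl-1 on the array labelled tdf was just above the floor and within the range of the yeast controls, and that of mle was above the highest yeast control.

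The histone acetyltransferase gene mof had 89.97 on the array labelled tdf, under the floor, against 116.7 on the yw array. It was therefore at least 1.20-fold lower, with a log2 ratio of -0.26 or below. The gene msl-2, which encodes the subunit made only in males, had 33.9 on the array labelled tdf and 52.8 on the yw array. The chromodomain gene msl-3 had 15.9 on the array labelled tdf and 92.8 on the yw array. Both genes were under the floor on both arrays, msl-3 only just so on the yw array. With a lower floor, at the 25th percentile (43.8), msl-3 became measured and was at least 2-fold lower, with a log2 ratio of -1.08 or below. At that floor fru had a log2 ratio of -0.25 and msl-2 of -0.27 or below, and dsx was still not measured.

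**Figure D2:**
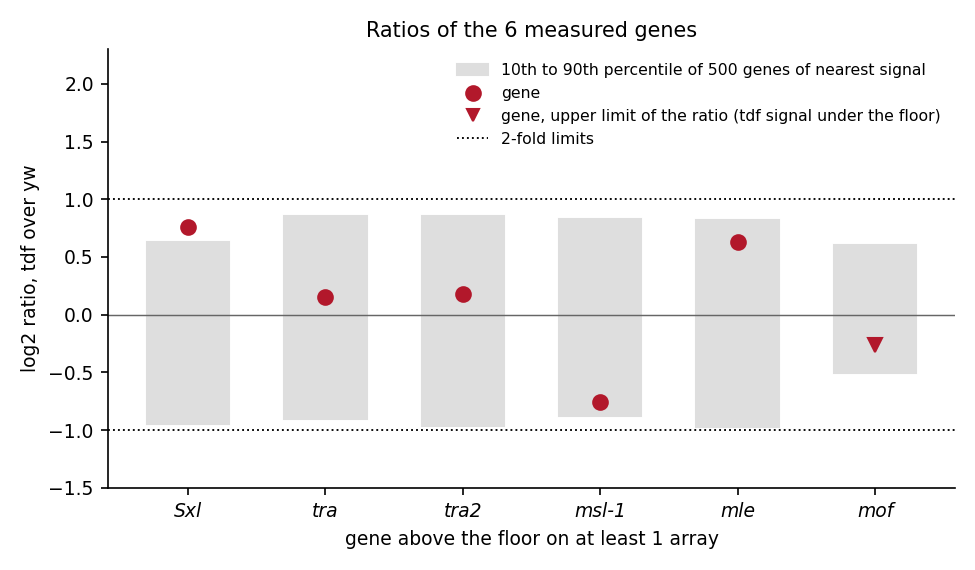
Log2 ratio (tdf over yw) of the 6 measured genes, with circles for genes above the floor on both arrays and a triangle for mof, whose ratio is an upper limit. Grey boxes span the 10th to 90th percentile of the 500 measured genes of nearest mean signal, and dotted lines mark 2-fold. No gene reaches 2-fold, and Sxl lies above its grey box at 0.76, while the 4 other genes with a ratio that is not a limit lie inside theirs.

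None of the 6 measured regulators was at least 2-fold apart between the arrays. Of all 7639 measured genes, 9.79% were at least 2-fold apart, 3.60% higher and 6.19% lower on the array labelled tdf. The 6 regulators had mean signals of 103 to 369. Of the 3244 measured genes in that range, 12.4% were at least 2-fold apart, 5.09% higher and 7.27% lower. Beside shares of this size, a count of 0 among 6 genes is not a result about these genes. The median log2 ratio of the 6 was 0.17, against 0.03 over all measured genes and 0.05 over the 3244 genes of like signal. Ratios above 0 were found for 4 of the 6 regulators, against 52.4% of all measured genes. The upstream genes Sxl, tra and tra2 were all above 0, and of the MSL complex genes 1 was above and 2 were below. The ratios of tra and tra2 were small beside the within-gene SD of 0.53, so these signs do not set the groups apart.

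**Figure D3:**
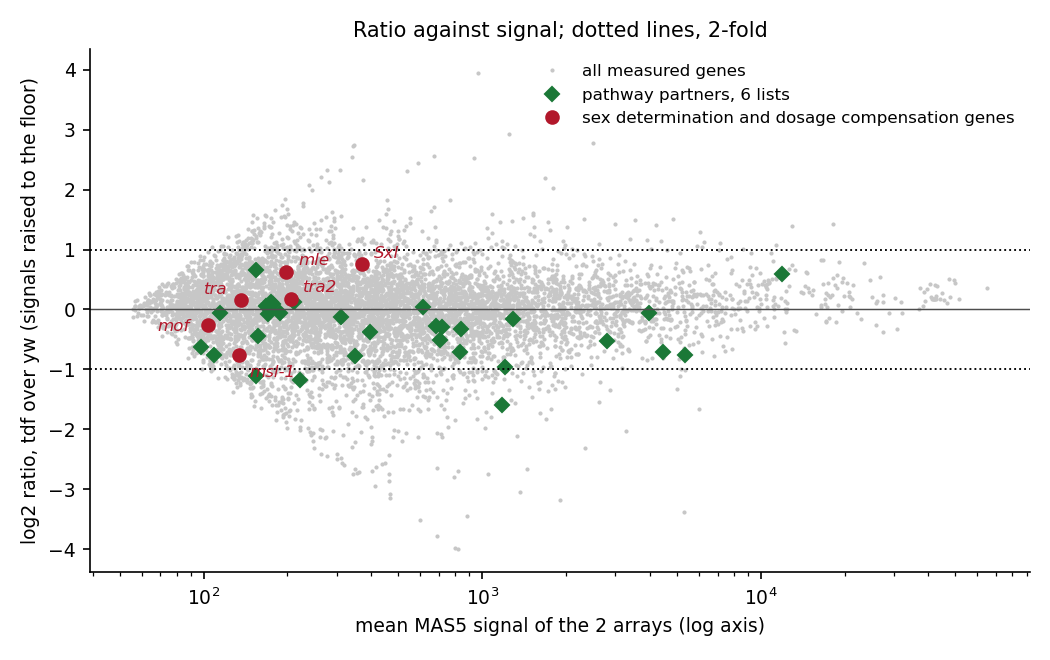
Log2 ratio (tdf over yw) against the mean signal of both arrays (log axis) for the 7639 measured genes in grey, the 30 measured pathway partners as green diamonds and the 6 measured regulators as labelled red circles. The regulators lie at mean signals of 103 to 369, at the dim end of the plot, where ratios scatter widely, and between the dotted 2-fold lines.

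Partners of these regulators, in 6 lists that hold 48 genes, gave 36 genes named on the array and 30 measured. None was counted as at least 2-fold higher and 3 as at least 2-fold lower, beside 3.60% higher and 6.19% lower over all measured genes. The ratios of Su(var)3-7 and robo1 are limits short of 2-fold and were not counted. Counts this small among 30 genes are not a result about the partners. Their median log2 ratio was -0.31, against 0.03 over all measured genes. Ratios above 0 were found for 7 of the 30, against 52.4% of all measured genes. The lists differed among themselves, with medians from -0.72 for the MSL complex partners to 0.13 for the factors that act on msl-2 mRNA. Some of these partners are general splicing or nuclear pore factors that act in every cell.

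Genes that read the dose of the X chromosome or act on the early Sxl promoter included 6 measured of 9. The proneural gene sc, an X-linked activator of Sxl, had 188 on the array labelled tdf, against 119 on the yw array, a log2 ratio of 0.66. Its partner da, a maternally supplied helix-loop-helix factor, had 1223 on the array labelled tdf, against 1364 on the yw array (log2 ratio -0.16). The repressor dpn, the autosomal counterweight of the X-linked activators, had 181 on the array labelled tdf, against 167 on the yw array (log2 ratio 0.12). These values differ by little for da and dpn and by more for sc. The ratio of sc was still inside the 10th to 90th percentile range of the 500 genes nearest to it in signal, -0.90 to 0.85. On the array labelled tdf, sc and dpn were within the range of the yeast controls. The brightest gene of the list was emc, an inhibitor of helix-loop-helix factors, with 3890 on the array labelled tdf, against 4032 on the yw array. The co-repressor gro was the 1 gene of the list at least 2-fold apart, at 584 on the array labelled tdf, against 1767 on the yw array, 3.02-fold lower. This rested on a probe set with a suffix in its name, which marks probes shared between transcripts. The plain probe set of gro had 617 on the array labelled tdf and 637 on the yw array, a log2 ratio of -0.05. The activators sisA and run were not analysed here, and upd1 was under the floor on both arrays.

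The machinery that carries out Sxl splicing, including the complex that methylates adenosines in mRNA, had 9 measured genes of 12, of which 7 were below 0. Their median log2 ratio was -0.38. Over all measured genes the median was 0.03 and 52.4% were above 0. The 7 include Mettl14 at only -0.06, small beside the within-gene SD of 0.53. The gene nito, an RNA-binding subunit of the methyltransferase complex, had 97.5 on the array labelled tdf, against 211 on the yw array, which is 2.16-fold lower. Its signal on the array labelled tdf was at the floor. The splicing factor gene U2af38 had 819 on the array labelled tdf, against 1595 on the yw array (log2 ratio -0.96). Its partner U2af50, the brightest of the list, had 3390 on the array labelled tdf, against 5531 on the yw array (log2 ratio -0.71). For fl(2)d, another part of the methyltransferase complex, the signals were 344 on the array labelled tdf and 446 on the yw array (log2 ratio -0.38), and for vir, also a part of it, 183 on the array labelled tdf and 171 on the yw array (log2 ratio 0.10).

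SR proteins that join Tra and Tra2 on dsx RNA were represented by SF2 and Rsf1, both measured and both lower by less than 2-fold. SF2 had 3980 on the array labelled tdf, against 6742 on the yw array, a log2 ratio of -0.76. Rsf1 had 2297 on the array labelled tdf, against 3296 on the yw array, a log2 ratio of -0.52. Of the factors that act with Sxl on msl-2 mRNA, the poly(A)-binding protein gene pAbp had 14249 on the array labelled tdf, against 9506 on the yw array (log2 ratio 0.58). Hrb27C had 745 on the array labelled tdf, against 938 on the yw array (log2 ratio -0.33), and Unr was under the floor on both arrays.

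The 5 measured partners of the MSL complex all had ratios below 0, whereas 52.4% of all measured genes were above 0. Their median log2 ratio was -0.72. Signs of 5 genes in a list chosen with earlier results known are not a result about the complex. Mgtor, a nuclear pore protein that associates with the complex, had 137 on the array labelled tdf, against 308 on the yw array, which is 2.25-fold lower. It was the 1 gene of the list counted as past 2-fold, a count that depends on the floor. With a floor at the 60th percentile Mgtor was at least 1.30-fold lower, a limit. The nuclear pore gene Nup153 had 258 on the array labelled tdf, against 443 on the yw array (log2 ratio -0.78). Clamp, a zinc finger protein that guides the complex to the X chromosome and the brightest of the list, had 632 on the array labelled tdf, against 1039 on the yw array (log2 ratio -0.72). The heterochromatin gene Su(var)3-7 had 45.6 on the array labelled tdf, under the floor, against 149.5 on the yw array, so it was at least 1.54-fold lower. With a floor at the 25th percentile Su(var)3-7 was just above the floor on the array labelled tdf and 3.28-fold lower. The histone kinase gene JIL-1 had 297 on the array labelled tdf, against 325 on the yw array (log2 ratio -0.13), small beside the within-gene SD of 0.53. Clamp, Nup153 and JIL-1 were inside the 10th to 90th percentile range of the 500 genes nearest to each in signal. The ratio of Mgtor and the limit for Su(var)3-7 were below that range. The roX RNAs, roX1 and roX2, which mark male embryos, were not analysed here. The share of male embryos in each extract was thus not checked.

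**Figure D4:**
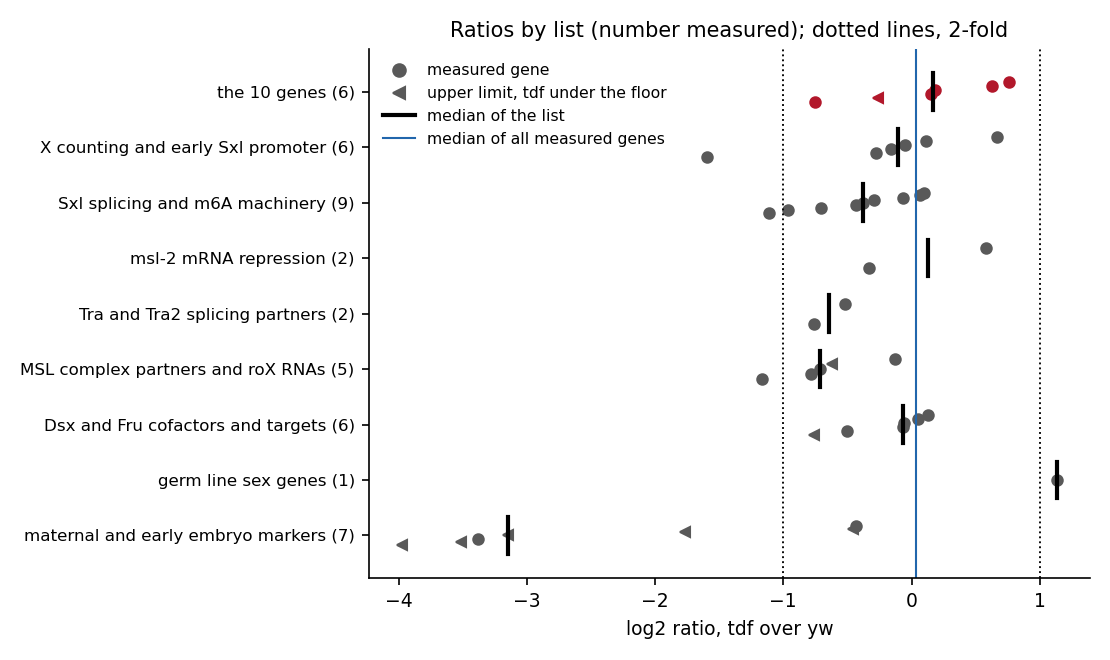
Log2 ratio (tdf over yw) of each measured gene in the 10 regulators, their 6 partner lists, the germ line list and the maternal markers, with black bars at list medians and a blue line at the median of all measured genes. The 5 measured MSL partners all lie below 0, JIL-1 at only -0.13. The maternal markers reach the lowest ratios, with a median of -3.15 or below, which is itself a limit.

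Cofactors and targets of Dsx and Fru had 6 measured genes of 11, with a median log2 ratio of -0.06. None was counted as at least 2-fold apart, against 9.79% of all measured genes, but the ratio of robo1 is a limit. The Dsx cofactor ix had 625 on the array labelled tdf, against 604 on the yw array (log2 ratio 0.05). The yolk protein gene Yp3, a target of Dsx in adult females, had 220 on the array labelled tdf, against 201 on the yw array, and Yp1 and Yp2 were under the floor on both arrays. The brightest of the list was lola, a neural transcription factor gene, with 582 on the array labelled tdf, against 826 on the yw array (log2 ratio -0.51). Other lola probe sets disagreed in direction, 1 of them with 492 on the array labelled tdf, against 389 on the yw array. The axon guidance receptor gene robo1 had 53.5 on the array labelled tdf, under the floor, against 165.0 on the yw array, so it was at least 1.70-fold lower. With a floor at the 25th percentile robo1 was above the floor on both arrays and 3.09-fold lower. Of 6 genes of germ line sex, only Phf7, a chromatin reader of male germ cells, was measured. It had 291 on the array labelled tdf, against 133 on the yw array, which is 2.20-fold higher. Of all measured genes, 3.60% were at least 2-fold higher, so 1 such gene is not a result about this list. With a floor at the 60th percentile (237) the yw signal of Phf7 is under the floor, and Phf7 was at least 1.23-fold higher and no longer counted as past 2-fold.

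Some markers of maternal RNA differed strongly between the arrays. Of 9 such markers, 7 were measured, all with a ratio below 0, whereas 52.4% of all measured genes were above 0. At least 2-fold lower were 5 of them, namely smg, swa, CycB, twe and bcd, against 6.19% of all measured genes. The measured markers gnu (log2 ratio -0.43) and plu (-0.46 or below, a limit) were not counted as 2-fold lower. Of the 7 ratios 5 are limits, with a signal under the floor on the array labelled tdf, and the median, -3.15 or below, is the limit for twe. The summed signal of the 9 was 1488 on the array labelled tdf, against 13917 on the yw array. Most of this sum was CycB, with 928 on the array labelled tdf, against 9664 on the yw array. Most of the other markers were under the floor on the array labelled tdf. The markers osk and png were under the floor on both arrays. The part of maternal RNA in the values of the regulators and of the partner lists was not tested. Germ line markers were at or near background, with 5 of 6 under the floor on both arrays and the exception of zpg (202 on the array labelled tdf, against 473 on the yw array). Of 5 markers of differentiated late tissues, 4 were measured, and all 4 were above the floor on both arrays. The pan-neuronal gene elav had 228 on the array labelled tdf, against 252 on the yw array, and the glial gene repo had 312 on the array labelled tdf, against 417 on the yw array. The cuticle protein gene Cpr49Af had 296 on the array labelled tdf, against 113 on the yw array. The brightest of the 4, TwdlM, had 57775 on the array labelled tdf, against 41034 on the yw array (log2 ratio 0.49). Ratios were thus above 0 for 2 of the 4 and below 0 for 2.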

How the data were processed

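The authors deposited linear intensities, 1 for each probe set on each array, from MAS5 per the submitters' processing notes. The sources used here give neither its version nor its settings. Because MAS5 corrects each probe for mismatch hybridisation, dim probe sets are noisy. Of 13966 gene probe sets, 12443 named 1 gene in the platform annotation, and 12394 symbols were updated by gene ID through the RefSeq gene table of Release 6 plus ISO1 MT. Probe sets naming several genes (327) were not used. Where a gene had several probe sets, the brightest over both arrays was used. Ratios with a signal under the floor are bounds, since that signal was set to the floor. Counts use a fixed limit of 2-fold. All 10 regulators are named, and of the other lists the genes past 2-fold, the brightest and others chosen for their role. The regulators and lists were chosen with earlier results of these data known. Simulated arrays served as a test of the steps. No statement here on genes near or under the floor rests on that test. Alternatives were centring, quantile normalisation, loess (span 0.3), other floors, other probe sets and other fold limits. The software was statsmodels 0.14.6 and pandas 2.3.3 under Python 3.11.15.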

Additional observations from a re-analysis of the deposited data

How the results depend on the processing

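Under centring, quantile normalisation, loess, the mean over all probe sets and plain probe sets only, none of the 6 measured regulators was 2-fold apart, and each of the 6 kept the sign of its log2 ratio. Across the settings that gave a value, Sxl stayed between 0.73 and 0.82. With a floor at the 25th percentile 9 regulators were measured, 1 of them (msl-3) was at least 2-fold lower, so 1 was 2-fold apart, and the median log2 ratio was -0.25 in place of 0.17. That setting adds genes of low signal by construction. With a floor at the 60th percentile (237), 2 regulators were measured (Sxl and mle), and mle had a log2 ratio of at least 0.01, its yw signal having been raised. With a limit of 1.5-fold, 3 regulators were apart, 2 higher (Sxl and mle) and 1 lower (msl-1), against 28.5% of all measured genes apart. With a limit of 3-fold none was. The 3 lower partner genes became 5 with a floor at the 25th percentile and 1 at the 60th, and gro was not 2-fold apart with plain probe sets only. The median of the germ line sex genes was -0.46 over 5 measured genes with a floor at the 25th percentile, against 1.13 for the 1 gene measured, and 0.30 or above for that gene (Phf7) at the 60th, where it was no longer 2-fold higher. The median of the maternal markers, a limit of -3.15, was -2.61 with a floor at the 25th percentile, -2.22 at the 60th and -2.59 with the mean over all probe sets, and stayed below 0 throughout. Over all genes, the lower floor gave 607 higher and 683 lower, and the upper floor gave 119 higher and 267 lower, in place of 275 higher and 473 lower. The comparison by chromosome arm was not run, since the array annotation gives no arm. Low signal limits what can be said of dsx, fru, msl-2 and msl-3.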
